A study of Mus musculus with 70 samples.

Results

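The genes described here are 33 genes of the endoplasmic reticulum (ER) stress and amino acid responses, measured in mouse lung after exposure to 13 chemicals. They were chosen as a list of gene symbols, and each gene was read from its brightest probe set, by the mean of the 70 arrays, among those that the platform's gene table gives that symbol alone. All 33 were measured, out of 18193 genes with such a probe set, and all 33 passed the filter on low values that left 14593 genes to test. Their mean log2 values over the arrays ran from 6.24 for Trib3 to 12.22 for Hspa5.

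The study hybridised right lung lobe RNA of 70 female B6C3F1 mice, 1 animal per array, to Affymetrix mouse genome arrays, and its title states the aim of predicting lung tumours of female mice from such profiles. Exposure began at 5 weeks of age and lasted 13 weeks. Chemicals mixed into feed were given on 7 days a week, and those in corn oil or water by gavage at 5 ml/kg on 5 days a week, each at 1 dose. The digit before the hyphen in the animal number divides the animals into a set 1 of 18 and a set 2 of 52. The sources used here do not say what it stands for, so each chemical was compared with controls of its own vehicle and set.

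In set 1, with 3 animals a group, the feed chemicals were 1,5-naphthalenediamine at 2000 ppm, N-(1-naphthyl)ethylenediamine dihydrochloride at 2000 ppm and pentachloronitrobenzene at 8187 ppm. Their controls received plain feed, and 2,3-benzofuran at 240 mg/kg was set against corn oil controls. In set 2, with 4 animals a group, the feed chemicals were 2,2-bis(bromomethyl)-1,3-propanediol at 1250 ppm, 4-nitroanthranilic acid at 10000 ppm, malathion at 16000 ppm and diazinon at 200 ppm. Corn oil carried benzene (100 mg/kg), coumarin (200 mg/kg) and 1,2-dibromoethane (62 mg/kg), with 8 control animals. N-methylolacrylamide at 50 mg/kg and 2-chloromethylpyridine hydrochloride at 250 mg/kg were given in water. Feed and water controls of set 2 had 4 animals each.

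RNA of a whole lobe mixes all lung cell types. The lung's defining genes were at high levels in every array: the surfactant gene Sftpc lay between 14.23 and 14.45 log2 units, the club cell gene Scgb1a1 between 13.95 and 14.37, the alveolar type I gene Ager between 13.69 and 14.31, and the endothelial gene Cdh5 between 8.99 and 10.22. In such samples fewer cells of a type and less RNA per cell cannot be told apart.

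Proteins that enter the ER fold there with the help of chaperones, and misfolded ones are sent back out for degradation. When unfolded proteins build up, the membrane sensors IRE1 (Ern1), PERK (Eif2ak3) and ATF6 start the unfolded protein response: spliced XBP1 and cleaved ATF6 raise chaperone and degradation genes, and PERK slows translation while favouring ATF4. ATF4 is shared with the response to amino acid shortage and raises Ddit3, Trib3, Chac1, Asns and genes of serine synthesis. In the lung the secretory load is high in type II cells, club cells and plasma cells.

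Binding motifs of these factors were searched in promoter windows from 250 bases before to 50 bases after each start site (RefSeq, GRCm38.p6), which were given for 30 of the 33 genes. Manf, Hyou1 and Atf6 had no window. The ER stress response element, the ATF6 motif with the letters CCAATNNNNNNNNNCCACG, was found on either strand in 8 of the 30 and in 0.119% of 32851 windows of all genes. Its end, CCACG, occurs by itself in 32.8% of all windows. The matches below are shown because 3 of the genes lowered with malathion (Hspa5, Pdia6 and Creld2) and 3 of those raised with N-methylolacrylamide (Hsp90b1, Canx and Dnajc3) carry one. Calr and Syvn1 carry one too and were called with no chemical. No relation between the motif and the changes was tested. Each line gives 49 bases in the direction of the motif, which is in capitals.
Hspa5, chr2:34772010-34772058, plus strand: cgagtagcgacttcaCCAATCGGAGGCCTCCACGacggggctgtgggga
Pdia6, chr12:17266476-17266524, plus strand: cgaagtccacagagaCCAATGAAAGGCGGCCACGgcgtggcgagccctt
Creld2, chr15:88819505-88819553, minus strand: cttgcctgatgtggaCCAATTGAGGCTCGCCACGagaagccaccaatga
Hsp90b1, distal match, chr10:86705623-86705671, minus strand: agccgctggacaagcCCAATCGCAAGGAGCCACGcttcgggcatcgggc
Hsp90b1, proximal match, chr10:86705518-86705566, plus strand: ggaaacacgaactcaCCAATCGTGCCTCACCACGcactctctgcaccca
Canx, chr11:50325785-50325833, minus strand: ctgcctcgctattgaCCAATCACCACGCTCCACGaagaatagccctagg
Dnajc3, chr14:118937812-118937860, plus strand: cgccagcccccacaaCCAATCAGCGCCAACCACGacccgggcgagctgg
Calr, chr8:84847060-84847108, plus strand: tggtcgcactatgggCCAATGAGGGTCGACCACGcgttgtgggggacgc
Syvn1, chr19:6046517-6046565, plus strand: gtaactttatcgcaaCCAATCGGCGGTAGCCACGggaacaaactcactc

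The motifs begin between 212 bases (Hsp90b1) and 44 bases (Syvn1) before the start site. Hsp90b1 carries 2 of them, 1 on each strand. Dnajb9 and Edem1 hold CCACG but no full element in this window, and Ddit3 and Trib3 hold neither. The core of the unfolded protein response element, TGACGTGG, was found in 0.676% of all windows and in 0 of the 30.

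The amino acid response core, TGATGNAA, to which ATF4 dimers bind, was found in 3.97% of all windows and in 5 of the 30: Atf3, Trib3, Asns, Chac1 and Herpud1. These are shown because Asns, Chac1 and Trib3 were lower together with N-methylolacrylamide and Trib3 was higher with 1,5-naphthalenediamine. The match of Trib3 lies after its start site and is not printed. A match describes letters and is not a measured binding site.
Asns, chr6:7693210-7693247, minus strand: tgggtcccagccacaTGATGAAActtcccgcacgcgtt
Chac1, chr2:119351034-119351071, minus strand: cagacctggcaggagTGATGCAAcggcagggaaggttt
Atf3, chr1:191183421-191183458, plus strand: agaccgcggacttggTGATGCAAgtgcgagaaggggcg
Herpud1, chr8:94386302-94386339, minus strand: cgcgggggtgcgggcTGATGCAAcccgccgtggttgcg

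Changes were tested in 1 limma fit over the 70 arrays with a mean per group. A gene was called when its p, adjusted by Benjamini-Hochberg over the 14593 genes of a comparison, was under 0.05. Changes are differences of group means in log2 units, treated minus control, with the standard error of the fit. Over the 13 chemicals the 33 genes gave 19 calls in 17 genes, 6 higher and 13 lower. They came from 4 chemicals: malathion, N-methylolacrylamide, 1,5-naphthalenediamine and coumarin. Trib3 and Dnajb9 were each called with 2 chemicals, and 16 genes with none.

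**Figure D1:**
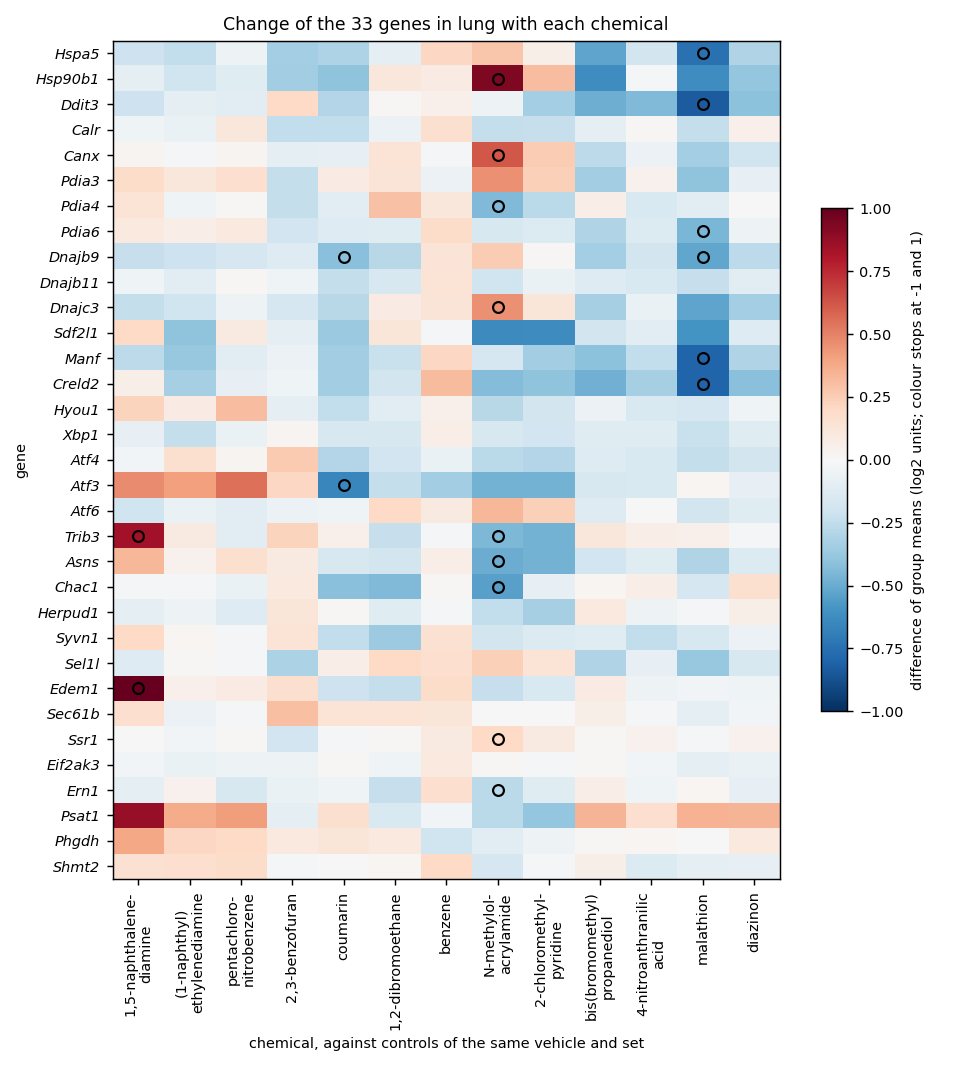
Change of each of the 33 genes (rows) with each of the 13 chemicals (columns), as the difference of group means in log2 units against controls of the same vehicle and set, red for higher and blue for lower; circles mark the 19 calls. The circles lie in 4 columns, with 6 in malathion, 9 in N-methylolacrylamide and 2 each in 1,5-naphthalenediamine and coumarin; neighbouring columns share control animals.

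Malathion, an organophosphate insecticide, went with lower levels of ER chaperones and of Ddit3. Of the 33 genes 6 were lower and 0 higher, against 1.16% of all genes tested called lower. The median change of the 33 was -0.22 against 0.02 over all genes tested, and 28 of the 33 had a negative sign against 45.8% of all genes. The 6 were the chaperone Hspa5, the ER-resident Manf and Creld2, the disulfide isomerase Pdia6, the Hspa5 cochaperone Dnajb9 and the transcription factor Ddit3, known as CHOP.

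Hspa5 (chr2:34772090-34776529 in GRCm38.p6, as are the positions that follow) encodes BiP, the main Hsp70 chaperone of the ER lumen, which also holds the 3 sensors inactive. The feed controls lay at 12.56, 12.46, 12.42 and 12.50 log2 units, and the malathion animals at 11.73, 11.95, 11.67 and 11.57. All 4 malathion animals were below all 4 controls. The difference was -0.75 ± 0.15 (a 1.69-fold lower level; limma adjusted p = 0.00195). The lower level was also seen with a second Hspa5 probe set, at -0.89, while another, of lower signal, gave -0.11.

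Ddit3 (chr10:127290793-127296291) encodes a factor that ATF4 induces in prolonged ER stress. Its controls were at 9.13, 9.28, 9.70 and 9.22, and the malathion animals at 8.57, 8.51, 8.27 and 8.66, without overlap. The difference was -0.83 ± 0.17 (limma adjusted p = 0.0042). A dim probe set of Ddit3, with a mean of 5.00, showed -0.04.

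Manf (chr9:106888753-106891938), an ER protein that is secreted under stress, lay at 11.41, 11.78, 11.75 and 11.53 in controls and at 10.71, 10.92, 10.62 and 10.99 with malathion. It differed by -0.80 ± 0.18 (limma adjusted p = 0.00693). Creld2, an ER-resident protein with disulfide isomerase activity, lay at 9.51, 10.02, 9.98 and 9.86 in controls and at 9.00, 9.34, 8.79 and 9.03 with malathion. The groups overlapped for neither gene. Creld2 also differed by -0.80 ± 0.18 (limma adjusted p = 0.00698).

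Dnajb9 (chr12:44205897-44210068), also called ERdj4, lay at 10.57, 10.50, 10.47 and 10.27 in controls and at 9.83, 9.95, 10.04 and 9.92 with malathion. It was lower by -0.52 ± 0.14 (limma adjusted p = 0.0341), without overlap. Pdia6 ran from 10.47 to 10.76 in controls and from 9.91 to 10.50 with malathion, so that the groups overlapped. It was lower by -0.46 ± 0.12 (limma adjusted p = 0.0207), and the gene's dim second probe set, with a mean of 4.50, showed no difference at -0.00. Leaving out each of the 8 animals in turn kept Hspa5, Ddit3, Manf and Creld2 called every time, while Dnajb9 was lost in 7 and Pdia6 in 4 of the 8. With array weights 14 of the 33 were called, all lower. Array weights raised the counts of several other comparisons too. No share over all genes is given here for that fit, so the count of 14 cannot be set against a background and does not strengthen the result.

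By the labels, the volume of RNA handed to the array core was 10 µl for 2 feed controls and 1 malathion animal and 15 µl for 2 controls and 3 malathion animals. With this amount as a block 5 of the 6 stayed called and Dnajb9 was lost, at -0.50 (limma adjusted p = 0.0625). Within the 10 µl animals Hspa5 differed by -0.53 and Dnajb9 by -0.57, and within the 15 µl animals by -0.83 and -0.45. In the same order Ddit3 differed by -0.90 and -0.75, Manf by -0.66 and -0.88 and Pdia6 by -0.23 and -0.58. Creld2 differed by -0.40 within the 10 µl animals, and within the 15 µl animals its means were 8.94 with malathion and 9.94 in controls. All 6 genes thus had negative values within both amounts, with no test.

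Further ER folding genes had negative values with malathion that did not pass the test. Dnajc3, the cochaperone p58IPK, lay at -0.53 ± 0.16 (limma adjusted p = 0.0523), with all 4 treated animals below all controls. The ERAD adaptor Sel1l was at -0.38 ± 0.12 (limma adjusted p = 0.0904), and the ER Hsp90 protein Hsp90b1 at -0.62 ± 0.26 (limma adjusted p = 0.188). Asns, which makes asparagine, was at -0.30 ± 0.13 (limma adjusted p = 0.194).

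Heat shock chaperones of the cytosol and mitochondria were also lower. Of a list of 17 such genes 10 were lower and 0 higher with malathion, with a median of -0.94. Hsph1 fell by 2.25, from 10.96 to 8.71 (limma adjusted p = 0.000348). Dnaja1 fell by 1.33 (limma adjusted p = 0.0235) and Chordc1 by 1.26 (limma adjusted p = 0.0134). The mean of the 17 genes lay between 9.35 and 9.92 in the malathion animals and between 10.32 and 10.86 in the feed controls. The part of these genes in the result on ER chaperones was not tested.

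Other lists moved less. Of 31 further chaperone and ERAD genes 1 was lower, Ero1b at -0.41. Of 32 tested translocon and secretory pathway genes 2 were lower, the signal peptidase subunit Spcs3 at -0.56 and the cargo receptor Lman1 at -0.36. Of 17 tested tRNA synthetase genes 1 was lower, Iars at -0.41, and of 28 tested ATF4 and amino acid response genes 0 were called.

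Among cell type markers, 3 of 12 airway secretory genes were lower with malathion: Scgb3a2 by -0.59, Cyp2f2 by -0.32 and Scgb1a1 by -0.19. The mean of the 12 ran from 9.34 to 10.38 with malathion and from 8.40 to 11.02 in controls. The ciliated cell gene Cdhr3 was at -0.70, 1 of 10 on its list. The part of these cells in the result was not tested.

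The other fed chemicals of set 2 share the feed controls, and none of the 33 genes was called with any of them. Hspa5 lay at -0.53 with 2,2-bis(bromomethyl)-1,3-propanediol, at -0.30 with diazinon and at -0.18 with 4-nitroanthranilic acid, and Ddit3 at -0.49, -0.41 and -0.44. The means of all 3 groups thus lay below the shared controls for both genes. The feed controls of set 2 had the highest mean of all 18 groups for Ddit3, Manf, Creld2, Pdia6 and Asns. When the diazinon and 4-nitroanthranilic acid animals stood in for the controls, 2 genes stayed called with malathion, Hspa5 at -0.52 ± 0.13 (limma adjusted p = 0.0246) and Pdia6 at -0.37 ± 0.10 (limma adjusted p = 0.0445). Manf then lay at -0.53 (limma adjusted p = 0.0613), Creld2 at -0.43 (limma adjusted p = 0.146) and Ddit3 at -0.40 (limma adjusted p = 0.165). That reference was chosen after the data were seen.

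**Figure D2:**
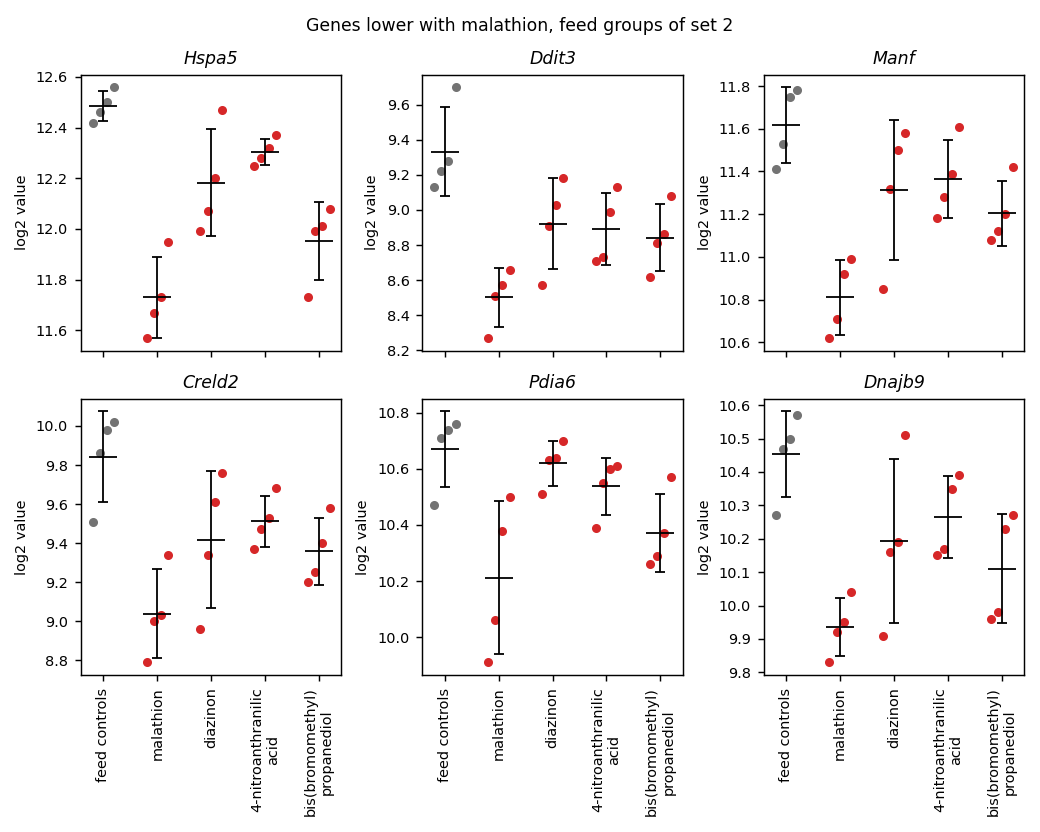
Log2 value of the 6 genes lower with malathion in each animal of the feed groups of set 2 (grey for controls, red for treated; bars give the mean and SD of 4 animals; each panel has its own axis). Malathion animals lie lowest as a group in all 6 panels, and the means of the other 3 chemicals lie between them and the controls.

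1,5-Naphthalenediamine, an aromatic diamine, went with higher Edem1 and Trib3. Of the 33 genes 2 were higher and 0 lower, against 0.959% of all genes tested called higher. The other 31 genes held changes between -0.26 for Manf and 0.87 for Psat1, and the median of the 33 was -0.00.

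Edem1 (chr6:108824045-108859356) recognises misfolded glycoproteins and passes them to degradation. The feed controls lay at 7.95, 8.13 and 8.12, and the treated animals at 9.55, 8.82 and 8.94, all above the controls. Edem1 was higher by 1.03 ± 0.15, or 2.05-fold (limma adjusted p = 2.2e-06). The gene's other probe set, of nearly the same mean signal, gave only 0.16, with group means of 8.41 and 8.25. The rise of Edem1 thus rests on 1 of its 2 probe sets.

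Trib3 (chr2:152337425-152344060) is a pseudokinase that ATF4 and CHOP induce. It lay at 5.81, 5.89 and 5.68 in controls and at 6.43, 6.82 and 6.65 with 1,5-naphthalenediamine, without overlap. It was higher by 0.84 ± 0.19 (limma adjusted p = 0.00657), and its second probe set gave 0.99. The call was lost without the treated animal 1-4 (limma adjusted p = 0.0989) and without the control animal 1-29 (limma adjusted p = 0.0787). With array weights 5 of the 33 were called, all higher, with no share over all genes given for that fit.

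Genes of amino acid and serine synthesis had positive values that did not pass the test. Psat1, the aminotransferase of serine synthesis, was at 6.22, 6.60 and 6.09 in controls and at 7.07, 7.25 and 7.19 in treated animals, a difference of 0.87 ± 0.24 (limma adjusted p = 0.0521). Phgdh, the first enzyme of that route, was at 0.39 ± 0.13 (limma adjusted p = 0.22) and Asns at 0.33 ± 0.14 (limma adjusted p = 0.441). For all 3 the treated animals lay above all controls, which is 1 of the 20 arrangements of 3 against 3 animals. Such a separation was not particular to these genes. Treated animals also lay above all controls for Atf3, Shmt2 and Sec61b and below all controls for Ddit3, Manf and Ern1, none of them called here. The share of all genes without overlap was not counted.

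Of 28 tested further ATF4 and amino acid response genes 2 were higher and 0 lower. The stress protein gene Nupr1 rose by 0.98, from 10.74 to 11.72 (limma adjusted p = 4.43e-07), and Slc3a2, the heavy chain of amino acid exchangers, by 0.49 (limma adjusted p = 0.0098). Edem2, a relative of Edem1, rose by 0.54 (limma adjusted p = 0.00529), the 1 gene called of 31 further chaperone and ERAD genes. The heat shock and tRNA synthetase lists had 0 calls.

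Plasma cell genes rose in the same animals. Of 11 markers 4 were higher, among them Ighm by 3.84, Jchain by 3.61 and Mzb1 by 1.97. The mean of the 11 lay between 8.29 and 8.85 in treated animals and between 7.06 and 7.49 in controls. The macrophage gene Marco was higher by 1.32. RNA integrity was read from control probe sets at the transcript ends of Actb and Gapdh, as the 3′ signal minus the 5′ signal, and averaged 0.165 against 0.318 log2 units, which 3 against 3 animals cannot separate below the exact permutation p of 0.1 found. With that measure as a covariate, a choice made after the data were seen, 2 genes stayed called. The part of plasma cells in the Edem1 and Trib3 result was not tested.

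N-(1-naphthyl)ethylenediamine carries 1 naphthalene-bound nitrogen with an aminoethyl chain where 1,5-naphthalenediamine has an amino group on each ring, and it was fed at the same 2000 ppm for the same 13 weeks. It was the 1 such pair compared. Against the feed controls it gave 0 calls among the 33, with 0.00685% of all genes called. Xbp1 had the smallest p there (-0.24 ± 0.11; limma adjusted p = 0.631).

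Set directly against each other, 1,5-naphthalenediamine was higher than N-(1-naphthyl)ethylenediamine for Edem1 and Trib3, 2 of 33 genes against 1.49% of all genes called higher. Edem1 lay at 8.09, 8.18 and 8.09 with N-(1-naphthyl)ethylenediamine and differed by 0.98 ± 0.15 (limma adjusted p = 5.44e-06). Its other probe set differed by 0.06. Trib3 lay at 5.78, 5.89 and 5.98 and differed by 0.75 ± 0.19 (limma adjusted p = 0.0174), with the second probe set at 0.96. The Trib3 call was lost in 4 of 6 runs that left out an animal, with an adjusted limma p of up to 0.157.

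For the other 31 genes a difference between the pair was not detected. The widest of these were Sdf2l1 at 0.60, with a 95% interval from 0.02 to 1.19 (limma adjusted p = 0.446), and Psat1 at 0.50, with an interval from 0.02 to 0.98 (limma adjusted p = 0.44). Intervals of that width do not show that the compounds act alike.

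**Figure D3:**
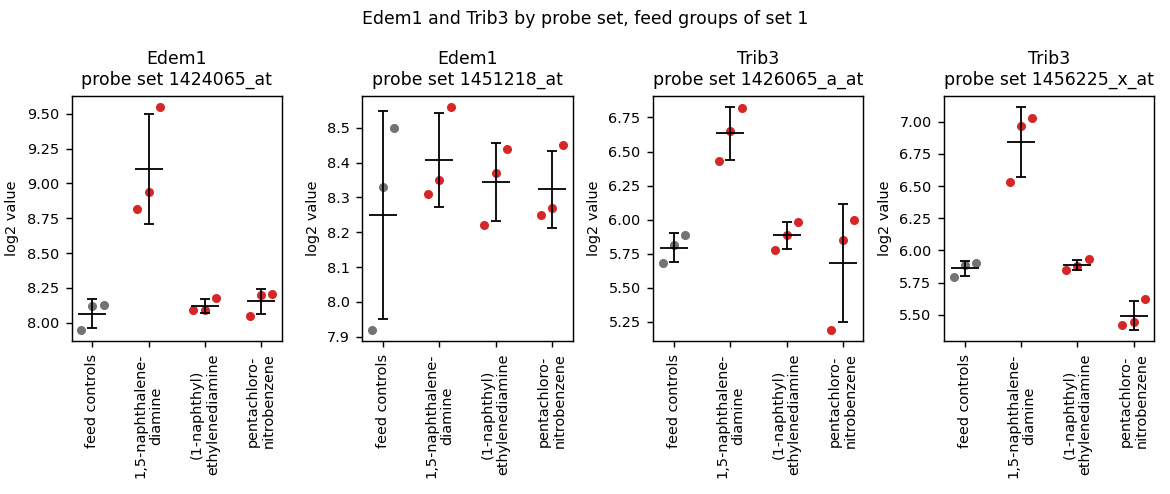
Log2 value of Edem1 and Trib3 in each animal of the feed groups of set 1, by probe set (grey for controls, red for treated; bars give the mean and SD of 3 animals; each panel has its own axis). The 1,5-naphthalenediamine animals stand above all others in both Trib3 panels and in the first Edem1 panel, and overlap with the others in the second Edem1 panel.

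N-methylolacrylamide, given in water, went with calls in both directions among the ER genes and with lower Asns, Chac1 and Trib3. Of the 33 genes 4 were higher, against 10.7% of all genes tested, and 5 lower, against 7.13%. The count of higher genes is near that background and the count of lower genes above it, in a comparison in which many genes were called. The higher genes were the lectin chaperone Canx, Hsp90b1, Dnajc3 and the translocon-associated Ssr1. The lower genes were Asns, the disulfide isomerase Pdia4, the sensor Ern1, the glutathione-degrading enzyme Chac1 and Trib3.

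Canx (chr11:50293957-50325673) holds newly made glycoproteins during folding. It lay at 10.07, 9.94, 10.23 and 10.68 in water controls and at 10.67, 10.98, 10.93 and 10.81 with N-methylolacrylamide. The 2 groups overlapped by 1 animal each. Canx was higher by 0.62 ± 0.14 (limma adjusted p = 0.00395), with its other probe sets at 0.59 and 0.53.

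Hsp90b1 spread more widely, at 9.21, 9.22, 9.55 and 10.37 in controls and at 9.96, 10.89, 10.96 and 10.27 in treated animals. It was higher by 0.93 ± 0.26 (limma adjusted p = 0.0109), and its second probe set gave 1.51. Dnajc3 ran from 8.82 to 9.16 in controls and from 9.11 to 9.79 in treated animals, a difference of 0.46 ± 0.16 (limma adjusted p = 0.0344). Both genes thus overlapped between the groups. Ssr1, in a narrow range from 10.01 to 10.12 in controls and from 10.19 to 10.32 in treated animals, was higher by 0.20 (limma adjusted p = 0.0368), with its other probe sets at 0.53, 0.27 and -0.06.

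Asns (chr6:7675165-7693209) lay at 9.05, 9.67, 9.23 and 9.42 in controls and at 9.09, 8.73, 8.83 and 8.73 with N-methylolacrylamide, where 1 treated animal reached into the control range. It was lower by -0.50 ± 0.13 (limma adjusted p = 0.00573), and its second probe set gave -0.45. Trib3 lay at 6.42, 7.14, 6.66 and 6.30 in controls and at 6.16, 6.18, 6.32 and 6.06 in treated animals, and was lower by -0.45 ± 0.16 (limma adjusted p = 0.0484). Its groups overlapped at 1 animal.

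Chac1 was at 7.51, 7.83, 7.51 and 7.06 in controls and at 6.82, 7.01, 6.89 and 7.03 in treated animals. It was lower by -0.54 ± 0.19 (limma adjusted p = 0.0433). Pdia4 was lower by -0.44 ± 0.12 (limma adjusted p = 0.012) and Ern1 by -0.27 ± 0.09 (limma adjusted p = 0.0374). For these 3 genes all treated animals lay below all controls, and the share of all genes without overlap was not counted.

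Further genes of the amino acid response and tRNA charging moved in the same comparison. Of 28 tested ATF4 and amino acid response genes 5 were lower and 1 higher, with Atf5 at -0.61, the amino acid transporter gene Slc7a5 at -0.61 and Cbs at -0.46. Slc38a2, another transporter gene, was the higher one at 0.44. Of 17 tested tRNA synthetase genes 7 were lower and 1 higher, with Cars at -0.49, Yars at -0.47, Aars at -0.42 and Eprs at 0.68. Of 31 further chaperone and ERAD genes 7 were higher and 3 lower, with Mbtps2 at 1.07 and Wfs1 at -0.41, and of 17 heat shock genes 4 were higher, with Dnaja1 at 1.25.

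Some markers of other lung cells were also called between N-methylolacrylamide and water controls, where 10.7% of all genes tested were called higher. Of 9 alveolar type I genes 3 were higher, with Akap5 at 0.88, Clic5 at 0.67 and Cav1 at 0.25. Of 10 endothelial genes 3 were higher, with Ednrb at 0.86, Emcn at 0.81 and Tek at 0.49. The macrophage gene Mrc1 was at 1.04, 1 of 8 tested on its list, and the fibroblast gene Lum at 1.19, 1 of 10. The mean of the type I list lay between 11.77 and 11.86 in treated animals and between 11.61 and 11.74 in controls, and that of the endothelial list between 10.40 and 10.56 and between 10.28 and 10.53. The part of these cells in the result was not tested.

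The 9 calls depended on the control animals. The water control 2-124 had the highest Asns, Chac1, Trib3 and Pdia4 of its group. Without it 0 of the 9 stayed called, and Canx then lay at 0.52 and Asns at -0.39. Without the treated animal 2-102 or 2-106, or without the water control 2-121, 3 of the 9 stayed called, namely Asns, Canx and Pdia4. The count was 19 with array weights and 2 in a fit of only the arrays of both groups, with no share over all genes given for these fits. With the 2-chloromethylpyridine animals, the other water gavage group, as the reference, a choice made after the data were seen, 0 of the 33 genes were called. Canx then lay at 0.37 (limma adjusted p = 0.438), Asns at -0.03 (limma adjusted p = 0.947) and Trib3 at 0.03 (limma adjusted p = 0.972).

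2-Chloromethylpyridine itself, which shares the water controls, gave 0 calls among the 33 and 0% of all genes. Asns had the smallest p (-0.47; limma adjusted p = 0.351), at 8.96, 9.00, 9.04 and 8.53 in the 4 animals. All 4 lay below all 4 water controls. With N-methylolacrylamide and 2-chloromethylpyridine, both set against those controls, Asns thus lay at -0.50 and -0.47.

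The water controls of set 2 stood apart from the other vehicle controls. Against the feed controls 8 of the 33 genes were lower and 0 higher. Of all 14593 genes tested 18.2% were called lower, a share not far from that of the 33, and 2264 genes were called higher. Hsp90b1 differed by -1.15, Dnajc3 by -0.85, Canx by -0.71, Dnajb9 by -0.61, Hspa5 by -0.56, Atf6 by -0.43, Sel1l by -0.40 and Ssr1 by -0.23. With the mean over all probe sets Sel1l was at 0.00, and Atf6 and Ssr1 were no longer called (limma adjusted p = 0.0839 and 0.0755). The other probe sets of Atf6 gave -0.13 and 0.04, and those of Ssr1 0.09, -0.57 and -0.14. Of the 17 heat shock genes 8 were lower and 0 higher in water controls, with Hspa4l at -1.76, Hsp90aa1 at -1.32 and Hsph1 at -1.19. Of the 31 further chaperone and ERAD genes 11 were lower and 1 higher. Of 10 endothelial markers 5 were higher and 2 lower, with Tie1 at 0.59 and Emcn at -0.69. Akap5 and Clic5 of the type I list were at -1.05 and -0.51, Mrc1 of the macrophage list at -1.20 and Lum of the fibroblast list at -1.09. The mean of the type I list ran from 11.61 to 11.74 in water controls and from 11.78 to 11.93 in feed controls. That of the macrophage list ran from 9.21 to 9.46 and from 9.53 to 9.69. For the fibroblast list the ranges overlapped, at 10.58 to 10.83 and 10.65 to 11.01, so that Lum does not stand for its list. The part of these genes and cells in the difference was not tested.

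Corn oil controls of set 2 were higher than water controls for Hsp90b1 by 0.97, Dnajb9 by 0.59, Dnajc3 by 0.56, Canx by 0.53 and Ssr1 by 0.23, 5 genes against 12.3% of all genes. They were lower for Sdf2l1 by -0.64, Pdia4 by -0.44 and Asns by -0.30, 3 genes against 10.6%. Without the water control 2-124 these 3 calls were lost (limma adjusted p = 0.364, 0.0716 and 0.287 in that order). The second Asns probe set gave -0.08. Corn oil and feed controls differed in 0 of the 33 genes in set 2, with 3.46% of all genes called, and in 0 in set 1, with 0%. Asns was nearest in set 2 (-0.33; limma adjusted p = 0.0719) and Ssr1 in set 1 (0.20; limma adjusted p = 1).

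The 3′ minus 5′ measure moved with the water controls. It averaged 0.116 log2 units in water controls, 0.287 in feed controls and 0.217 in corn oil controls of set 2. The exact permutation p was 0.0286 for water against feed and 0.00606 for corn oil against water. Its part in these differences was not tested. Between N-methylolacrylamide and water controls it averaged 0.179 and 0.116 (exact permutation p = 0.143). With this measure as a covariate 11 of the genes described here were called. No share over all genes is given for that fit, so the count of 11 cannot be set against a background.

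**Figure D4:**
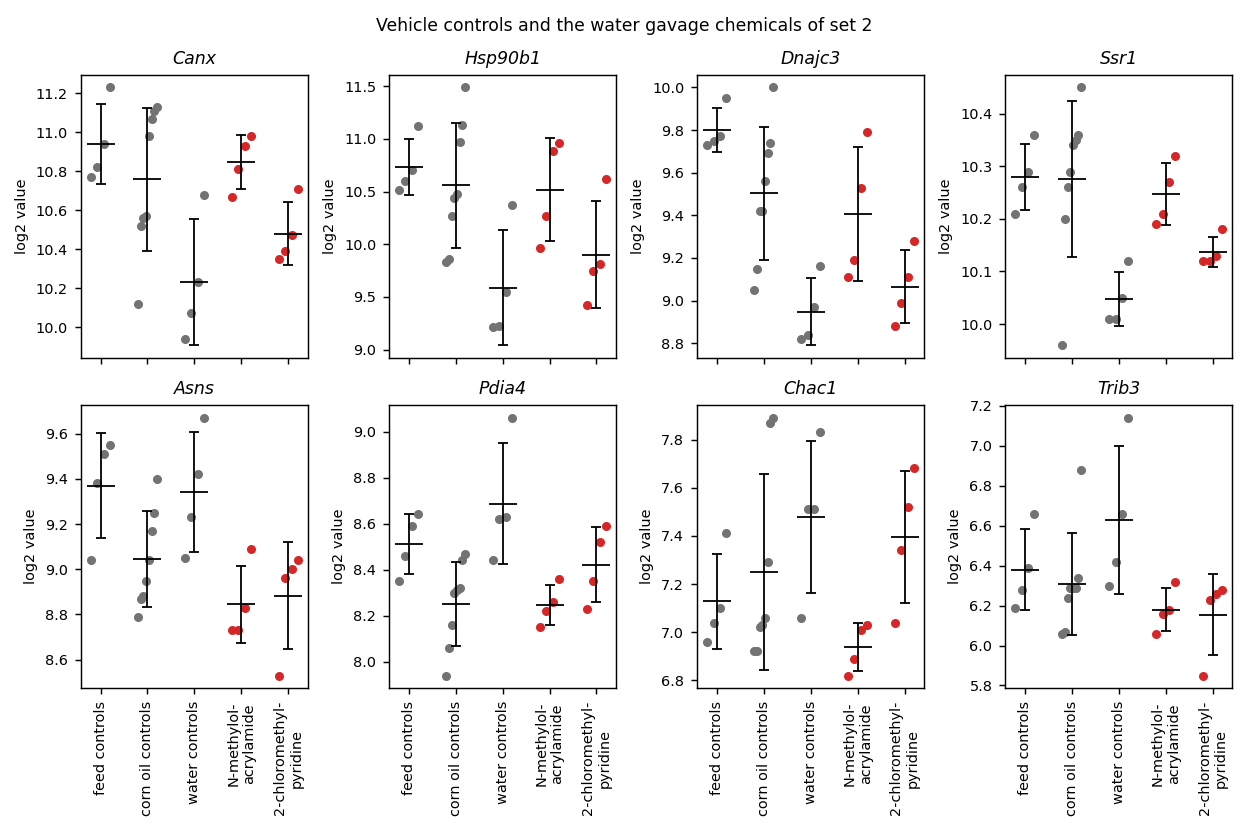
Log2 value of 8 genes in each animal of the vehicle controls of set 2 (grey; 4 feed, 8 corn oil, 4 water) and of the 2 chemicals given in water (red; 4 animals each), with the mean and SD; each panel has its own axis. The water controls have the lowest mean for Canx, Hsp90b1, Dnajc3 and Ssr1, and the highest of these 5 groups for Pdia4, Chac1 and Trib3.

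Coumarin, a plant lactone, went with lower Dnajb9 and Atf3, 2 of 33 genes against 1.18% of all genes tested called lower. The median of the 33 was -0.16 against -0.01 over all genes. Dnajb9 lay between 10.00 and 11.00, with a mean of 10.44, in the 8 corn oil controls, and at 9.84, 9.84, 10.22 and 10.19 with coumarin. The groups overlapped. Dnajb9 was lower by -0.42 ± 0.12 (limma adjusted p = 0.0339).

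Atf3, a stress-induced transcription factor, ran from 6.93 to 7.74 in controls and lay at 6.98, 6.54, 6.53 and 6.71 with coumarin. It was lower by -0.65 ± 0.20 (limma adjusted p = 0.0498), at the edge of the threshold. Of the 12 runs that left out an animal, 9 lost Atf3 and 6 lost Dnajb9. Both were lost without the coumarin animal 2-75 and without the control animal 2-60, 2-95, 2-97 or 2-99. In a fit of only the arrays of both groups 0 of the 33 were called, so that both calls hang on single animals and on the arrays fitted.

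Coumarin moved other genes of the pathway in both directions. Of all 14593 genes tested 425 were called higher. Edem2 was higher by 0.43 and the prolyl isomerase gene Fkbp2 by 0.36, 2 of 31 further chaperone and ERAD genes, and Stc2 was higher by 0.43 and Aldh18a1 lower by -0.66 on the amino acid response list. Hspb1, a small heat shock protein, was lower by -0.88, the 1 of 17 heat shock genes called. Airway secretory markers were higher in 4 of 12, led by Agr2, itself a disulfide isomerase of mucus cells, at 2.64. The mean of the 12 ran from 9.74 to 11.18 with coumarin and from 8.08 to 10.67 in controls. Ciliated cell markers were higher in 5 of 10, and endothelial markers lower in 3 of 10. The part of these cells in the result was not tested.

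The other 9 chemicals had 0 calls among the 33 genes. For 2,3-benzofuran 4.07% of all genes were called, and the translocon subunit Sec61b came nearest (0.30; limma adjusted p = 0.106). For 1,2-dibromoethane 4.03% were called, with Ern1 nearest (-0.23; limma adjusted p = 0.0951). For benzene 0.0891% were called, with Ern1 nearest (0.17; limma adjusted p = 0.512). A count of 0 among 33 is near the share over all genes in each of these 3 comparisons. With array weights, for which no share over all genes is given, 2 of the 33 were called for 2,3-benzofuran and 1 for 1,2-dibromoethane.

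For pentachloronitrobenzene 0.00685% of all genes were called, and Hyou1, an ER Hsp110 chaperone, came nearest (0.31; limma adjusted p = 1). For diazinon 0.00685% were called, and Creld2 came nearest (-0.42; limma adjusted p = 0.883). For 2,2-bis(bromomethyl)-1,3-propanediol and 4-nitroanthranilic acid 0% were called. Hspa5 came nearest with the former (-0.53; limma adjusted p = 0.272) and Ddit3 with the latter (-0.44; limma adjusted p = 1). With array weights 11 and 1 of the 33 were called with these 2 chemicals, again with no share over all genes for that fit. An unadjusted limma p under 0.05 is given next as a count among the 33, with the share of all genes tested in brackets. The counts were 9 with 2,2-bis(bromomethyl)-1,3-propanediol (10.7%), 9 with 2-chloromethylpyridine (11.7%), 6 with 1,2-dibromoethane (19.3%) and 4 with 2,3-benzofuran (17%). Diazinon had 4 (4.89%), benzene 3 (9.47%) and pentachloronitrobenzene 2 (2.94%). N-(1-naphthyl)ethylenediamine had 1 (7.56%) and 4-nitroanthranilic acid 1 (1.86%). For 1,2-dibromoethane, 2,3-benzofuran, benzene and N-(1-naphthyl)ethylenediamine the count was not above that share.

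By the labels, 7 chemicals are in the lung tumour class called positive for female mice and 6 in the negative class. With 1 value per chemical, the treated mean minus the matched control mean, 0 of the 33 genes differed between the classes after adjustment, with 0% of all genes. Sec61b had the smallest p, with means of 0.13 and -0.04 in positive and negative chemicals (difference 0.17 ± 0.06; limma adjusted p = 0.746). It was the only one of the 33 with an unadjusted limma p under 0.05, against 6.46% of all genes. Ddit3 averaged -0.11 and -0.37, a difference of 0.26 with a 95% interval from -0.01 to 0.53. Of the 4 chemicals with calls, malathion is in the negative class and the other 3 in the positive class.

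Genes that were called with no chemical still varied between groups. Among sensors and factors, Eif2ak3 had the narrowest range of the 33, with group means from 8.55 to 8.87. Xbp1 ranged from 11.68 to 12.12, Atf4 from 10.28 to 11.08 and Atf6 from 7.60 to 8.34. The splicing of Xbp1 and the cleavage of ATF6, the steps that activate them, were not measured.

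Among folding genes without a call, Calr ran from 11.53 to 12.30, Pdia3 from 10.95 to 11.81, Dnajb11 from 8.75 to 9.24, Hyou1 from 8.49 to 9.18 and Sdf2l1 from 7.03 to 8.37. Among degradation genes, Herpud1 ran from 10.77 to 11.53, Syvn1, the ligase of ERAD, from 7.79 to 9.12 and Sel1l from 9.84 to 10.68. The translocon gene Sec61b ran from 10.31 to 10.94. In serine and glycine synthesis Psat1 ran from 6.30 to 7.27, Phgdh from 7.62 to 8.48 and Shmt2 from 6.60 to 7.02.

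Much of that range lay between set 1 and set 2. For 6 of the 33 genes all 6 group means of set 1 lay above all 12 of set 2, as did 14.8% of all genes tested: Hsp90b1, Canx, Pdia3, Dnajc3, Atf6 and Sel1l. For 12 genes they lay below, as did 24.6% of all genes. Hsp90b1 group means spanned 11.53 to 11.88 in set 1 but 9.59 to 10.74 in set 2. For Asns the spans were 8.42 to 8.75 and 8.85 to 9.37. The shift takes in many genes besides these. No test here compared levels across sets, and ranges and ranks over the 18 groups include the shift.

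Across animals, ER chaperones rose and fell together with Hspa5. Each value was taken as its deviation from its group mean, so that treatment, vehicle and set do not enter. Over the 70 arrays 13 of the other 32 genes were positively correlated with Hspa5 at an adjusted permutation p under 0.05 over all genes (100000 resamples), against 16.5% of all genes tested. Their order began with Dnajc3, at a Pearson r of 0.78 and a Spearman rho of 0.75 (permutation p = 1e-05 for both, the smallest they can give; adjusted 0.000245). Without the 2 arrays farthest out in Hspa5 r was 0.77, and it was 0.68 in set 1 and 0.79 in set 2.

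Hsp90b1 followed with r = 0.74, Dnajb9 with 0.72, Sel1l with 0.69, Atf6 with 0.67, Canx with 0.64, Pdia3 with 0.58 and Pdia6 with 0.56. Creld2 was at 0.48, Dnajb11 at 0.42, Eif2ak3 at 0.39 and Calr and Manf at 0.37. For all 13, r stayed positive within each set. The 1 gene with a negative correlation past the threshold was Sec61b, at -0.35 (rho -0.29; adjusted permutation p = 0.0374). Over all genes 3213 of 14592 were negatively correlated past it, a larger share than 1 of 32. An r at or above that of Sec61b was held by 79.0% of all genes, so its value is not unusual.

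In the ATF4 branch no Pearson correlation passed the adjusted test. Ddit3 was at r = 0.07, Asns at 0.04, Chac1 at -0.18, Trib3 at -0.31 and Atf4 at -0.31, with adjusted permutation p-values from 0.0608 to 0.839. By Spearman's rho Atf4 was at -0.40 and Trib3 at -0.30 (permutation p = 0.00394 and 0.0243, not adjusted over genes). Ddit3, Asns and Chac1 lay between a rho of -0.22 and 0.11. Several folding genes were near 0 over all arrays too, with Pdia4 at 0.03 and Hyou1 at 0.13. These 2 were at 0.61 and 0.65 in set 1 and at -0.09 and -0.01 in set 2. That difference between the sets was not tested.

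The genes of the whole table most like Hspa5 by r lay outside the 33: the mitochondrial chaperonin Hspd1 at 0.846, the cytosolic chaperone Hspa4l at 0.836, Heatr5a at 0.831, the Hsp70 partner St13 at 0.822 and the cytosolic Hsp90aa1 at 0.81. Dnajc3 came next. All genes of an animal share 1 labelling reaction and 1 array, and the part of these in the correlations was not tested.

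**Figure D5:**
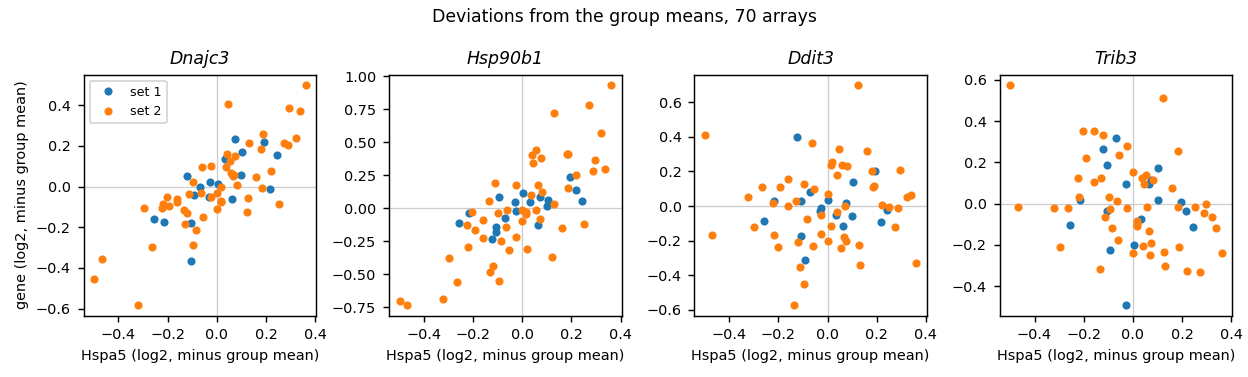
Deviation of 4 genes from their group means (vertical, log2 units) against that of Hspa5 (horizontal, log2 units) in the 70 arrays, blue for set 1 and orange for set 2. Dnajc3 and Hsp90b1 rise with Hspa5 (r = 0.78 and 0.74), whereas Ddit3 shows no slope (r = 0.07) and Trib3 a weak negative one (r = -0.31).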

How the data were processed

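The authors deposited 1 value per probe set and array, taken here as log2 signals from their range of 2.47 to 14.5. Their summarization and normalization are not given in the sources used here. Besides 64 controls, 34945 of 45101 probe sets had 1 gene symbol, 932 several and 9160 none. Genes with a mean over the arrays above 4.25 log2 units, the 30th percentile of all probe sets, were tested. Fits used lmFit and eBayes of limma 3.58.1 under R 4.3.3 and were tested on simulated data. The number of arrays limits the precision.

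The 33 genes and the lists of pathway and cell type genes were chosen with earlier results of these data known. All genes called with a chemical are named, the 8 with the most calls and smallest adjusted p in full, and for chemicals without a call the gene with the smallest p. From other lists at most 3 called genes per direction are named. Alternatives tried were the mean over probe sets, other filters, renewed quantile normalization, array weights, robust variance, RNA amount as a block, only the 2 groups' arrays and leaving out each animal. Plots used matplotlib 3.10.9 under Python 3.11.15.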

Additional observations from a re-analysis of the deposited data

Results flagged for a closer look

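In the water controls of set 2, Sdf2l1, a cochaperone of the ER lumen, stood at 9.32 log2 units in animal 2-124, while the other 3 animals lay between 7.99 and 8.13. Its distance to the nearest animal, as a share of the group's range, was past Dixon's limit. Over 52 combinations of a gene and a group that were checked this was the only one, and chance alone marks about 5% of them. The same animal had the highest Asns (9.67), Chac1 (7.83), Trib3 (7.14) and Pdia4 (9.06) of its group.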

How the results depend on the processing

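The malathion count of 6 genes lay between 4 and 5 in the runs that left out an animal, and was 14 with array weights and 2 with the diazinon and 4-nitroanthranilic acid animals as reference. For 1,5-naphthalenediamine the count of 2 lay between 1 and 3 without an animal and was 5 with array weights; against N-(1-naphthyl)ethylenediamine it lay between 1 and 2 and was 6. For N-methylolacrylamide the count of 9 lay between 0 and 13 without an animal. It was 19 with array weights, 2 with only the arrays of both groups and 0 against 2-chloromethylpyridine, where Trib3 turned to 0.03. The coumarin count of 2 lay between 0 and 2 without an animal, and was 1 without the filter, 1 with quantile normalization and 0 with only the arrays of both groups. Counts of 0 became, with array weights, 2 for 2,3-benzofuran, 1 for 1,2-dibromoethane, 11 for 2,2-bis(bromomethyl)-1,3-propanediol, 1 for 4-nitroanthranilic acid and 5 for corn oil against feed controls of set 2. They lay between 0 and 1 without an animal for 2,3-benzofuran and 1,2-dibromoethane, and between 0 and 2 for those controls. For 1,2-dibromoethane the count was 1 with RNA integrity as a covariate, and for 2,2-bis(bromomethyl)-1,3-propanediol it was 1 with only the arrays of both groups. For water against feed controls the count of 8 was 17 with array weights and lay between 8 and 10 without an animal, and Sel1l was at 0.00 with the mean over probe sets. For corn oil against water controls the count of 8 was 13 with array weights and 0 with only the arrays of both groups, and lay between 5 and 14 without an animal, at 5 without 2-124 and at 14 without 2-132. The cause of these shifts was not tested. Shares over all genes given in the text belong to the main fit, and none is given for these alternatives. Their counts therefore cannot be set against a background, and a higher count does not make a result stronger. The other alternatives kept each count within 1.5 times, and the tumour class count stayed at 0 in all that were run. The integrity covariate and the exchanged references were chosen after the data were seen.

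Most groups held 3 or 4 animals, which limits the differences that were detectable, and each chemical was given at 1 dose. No paired analysis was possible because no 2 animals of compared groups share a number.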
